A study of Mus musculus with 2 samples.

Results

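Among the genes counted in hematopoietic stem cells (HSCs), the 10 described here are *Trp53*, which encodes the transcription factor p53, its inhibitors *Mdm2* and *Mdm4*, and 7 stress genes downstream of it or linked to it, *Ccng1*, *Zmat3*, *Phlda3*, *Trp53inp1*, *Sesn2*, *Gadd45a* and *Gadd45b*. They were taken by gene symbol, and all 10 were found among the 24421 symbols of the count files. HSCs, sorted as Lin- cells positive for Sca-1, c-kit and CD150 and negative for CD34, CD48 and Flt3, were compared in 2 libraries of C57BL/6 background, 1 with genotype Ezh2 +/+ CreERT+/- (WT) and 1 with genotype Ezh2 Δ/Δ CreERT+/- (labelled Ezh2 KO). Both carried the tamoxifen-activated recombinase. Donor marrow of either genotype was engrafted in lethally irradiated CD45.1 hosts, tamoxifen was injected for 5 days (100 µl at 10 mg/ml daily), and cells were sorted 1 month later. The study's methods mention female C57BL/6 mice without tying them to these transplants. The promoter that drives the recombinase, the age and sex of these donors and hosts, and the number of animals behind each library were not given in the sources used here. There was 1 library per group, so the differences reported have no replicate check and no p-value.

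p53 is kept scarce in unstressed cells because MDM2 marks it for degradation, and MDM4 (also called MDMX) binds and restrains it without being an efficient ubiquitin ligase on its own. DNA damage and other stresses release p53, which then binds pairs of a short DNA half-site near its target genes and raises their transcription, *Mdm2* included, so that the pathway carries its own feedback. In HSCs the pathway is known for keeping cells quiescent and for deciding survival after DNA damage. *Ezh2* encodes the histone methyltransferase of Polycomb repressive complex 2, and the comparison asked how RNA levels of this pathway differed between the HSCs labelled as WT and those labelled as Ezh2 KO.

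The promoters of the 10 genes were examined first for the p53 half-site consensus, a palindrome of 10 bases that reads the same on both strands, in RefSeq windows (GRCm38.p6, the assembly of mm10) of 250 bases before to 50 after each start. Windows were found for 8 of the 10 genes (9 windows), and not for *Zmat3* and *Trp53inp1*. A match stood in 4 of the 9 windows, those of *Trp53*, *Mdm2*, *Ccng1* and *Gadd45a*, whereas 8.36% of all 32851 promoter windows held one. None of the 9 windows held 2 half-sites separated by 0 to 13 bases, as 0.0731% of all windows did. Among windows of the other p53 targets described below, 10 of 41 held a half-site. Of those targets 1 gene, *Cdkn1a*, held 2 half-sites so separated. The matches in windows of the 10 genes are shown in capitals with 30 bases on either side (10 for *Gadd45a*). They belong to the gene that encodes the factor and to 3 genes it is known to act on. The stretch shown for *Trp53* lies at chr11:69580254-69580323 (plus strand). On the minus strand lie those for *Mdm2* (chr10:117710905-117710974), *Ccng1* (chr11:40755432-40755501) and *Gadd45a* (chr6:67037428-67037457). Each stretch ends before the start in RefSeq, but that of *Gadd45a* lies within the gene as GENCODE annotates it, whose start is further upstream.
Trp53: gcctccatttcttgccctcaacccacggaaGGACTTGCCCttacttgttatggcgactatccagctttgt
Mdm2: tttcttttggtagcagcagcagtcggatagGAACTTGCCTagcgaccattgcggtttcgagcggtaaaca
Ccng1: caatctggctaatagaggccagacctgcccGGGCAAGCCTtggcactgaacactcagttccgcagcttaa
Gadd45a: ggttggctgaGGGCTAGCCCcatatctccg

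A match in such a window is a description of its letters and not a site shown to be bound. Sequence outside the windows, where p53 sites of these genes may also lie, was not searched. By sign alone, the 4 genes with a match lay on both sides of equality between the libraries. *Mdm2* and *Ccng1* were lower and *Trp53* and *Gadd45a* higher in the values that follow. The differences of *Trp53* and *Ccng1* were within counting error, and that of *Gadd45a* was only just outside it.

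The libraries held 5763118 (WT) and 4157280 (labelled Ezh2 KO) gene counts, at which 3 counts correspond to 0.521 and 0.722 CPM (counts per 1000000 gene counts). *Ezh2* had 166 counts for WT and 129 for the Ezh2 KO-labelled library, a log2 ratio of 0.08 (95% interval -0.27 to 0.42), so the deletion was not visible in the gene-level count and the label alone gives the genotype. *Xist* had 801 counts in WT, compared with 4 in the other library, and the Y-linked *Ddx3y* had 0 and 275. This is the pattern of female cells in WT and of male cells in the Ezh2 KO-labelled library, though the sources used here do not give the sex. Genes used as HSC markers were present in both, with summed levels of 3810 and 4100 CPM over 8 genes and log2 ratios from -0.62 (*Slamf1*) to 0.32 (*Ly6a*). Markers of maturing blood cells were unequal. The 4 eosinophil genes summed to 0 CPM in WT and 769 CPM in the Ezh2 KO-labelled library, the 5 neutrophil genes to 1290 and 2980, the 5 erythroid genes to 56.6 and 192, the 5 B lymphoid genes to 4.86 and 39.2, and the 4 T and natural killer cell genes to 20.1 and 36.6. The 4 monocyte genes summed to 516 and 618 CPM through *Lyz2* alone, since the other 3 were lower in the Ezh2 KO-labelled library (median of the 4 log2 ratios -0.41), *Csf1r* past 2-fold on 24 and 5 counts. The 3 genes of surface markers that the sort excluded were all above 0, with log2 ratios of 0.95 for *Flt3* (0.57 to 1.34), 0.23 for *Cd34* (0.10 to 0.37) and 0.29 for *Cd48* (-1.01 to 1.62). With 1 library in each group, genotype, the sex-linked difference and the difference in marker levels cannot be told apart, and in bulk RNA fewer cells of a type cannot be told apart from less RNA per cell.

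All 10 genes of the p53 group were expressed above the filter of a mean of 1 CPM, and none differed 2-fold between the libraries. Ratios are the Ezh2 KO-labelled library over WT, formed as log2 of the normalised read count plus 1, and the 95% intervals are exact binomial intervals of the 2 raw counts. They cover counting error only and leave out spread between animals and preparations. PCR copies were not marked by molecular identifiers and are not separate molecules, so the intervals can be too narrow even for counting error. Among the 12588 genes that passed the filter, 4.91% were past 2-fold higher and 3.9% past 2-fold lower. At the lower bar of 1.5-fold, 10.5% of all genes were higher and 10.0% lower, and again 0 of the 10 passed. The median log2 ratio of the 10 genes was 0.05, against 0.00 for all genes tested. Above 0 were 6 genes and below 0 were 4, beside 49.6% and 50.4% of all genes. The summed level of the 10 was 763 CPM in WT and 784 CPM in the other library.

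**Figure D1:**
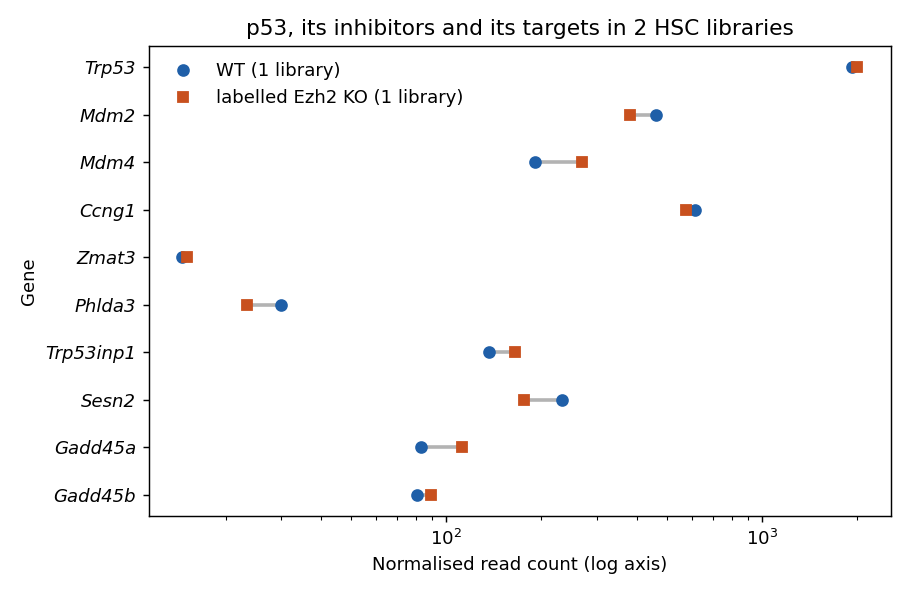
Normalised read count (log axis) of each of the 10 genes in the WT library (circles) and the Ezh2 KO-labelled library (squares), 1 library each. *Trp53* had the highest values (1930 and 1991.5) and *Zmat3* the lowest (14.6 and 15.1), and the 2 symbols are furthest apart for *Mdm4* (191.4 and 269.2), followed by *Gadd45a* (83.2 and 111.9) and *Sesn2* (231.7 and 176.0).

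*Trp53* itself (chromosome 11, 69580359 to 69591873 in mm10) had 2249 counts in WT, compared with 1709 in the Ezh2 KO-labelled library, or 1930 and 1991.5 after normalisation. This gave a log2 ratio of 0.05 (-0.05 to 0.14), the narrowest interval of the group. Values of the p53 transcript were therefore within counting error of each other. Per kilobase of exon its level was the highest of the group, at 96.5 RPKM (CPM per kilobase of exon) in WT and 102 RPKM in the other library, above 96.0% and 96.1% of genes tested. The p53 relatives *Trp63* and *Trp73* had 0 counts in both libraries, which allows up to 0.521 and 0.722 CPM.

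The 2 inhibitors differed in opposite directions. *Mdm2* (chromosome 10, 117688875 to 117710758) had 537 and 328 counts, or 460.8 normalised counts in WT and 382.2 in the Ezh2 KO-labelled library. Its log2 ratio was -0.27 (-0.47 to -0.07), a level 1.21-fold lower. *Mdm4* (chromosome 1, 132959484 to 133030561) had 223 and 231 counts, or 191.4 and 269.2 normalised counts. With a log2 ratio of 0.49 (0.22 to 0.76), 1.4-fold higher, it had the largest ratio of the 10 genes.

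A ratio of 2 genes within a library does not depend on how the libraries are scaled to each other. There were 2.41 *Mdm2* counts for each *Mdm4* count in WT and 1.42 in the Ezh2 KO-labelled library, so this balance was 0.59 times that of WT (exact conditional 95% interval 0.466 to 0.747). Relative to *Trp53* counts, *Mdm2* was at 0.804 times its WT value (0.689 to 0.937) and *Mdm4* at 1.36 times (1.12 to 1.66). *Mdm4* counts come from 14798 bases of annotated exon, and its level per length was low, at 2.61 and 3.75 RPKM against 18.3 and 15.5 RPKM for *Mdm2*. The pair was picked out after its values were seen, and the intervals contain no spread between animals or preparations.

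The 5 established p53 targets lay on both sides of 0. *Ccng1* (cyclin G1, a regulator of the phosphatase PP2A and of MDM2; chromosome 11, 40748552 to 40755311) was the most abundant, with 716 counts in WT and 492 in the Ezh2 KO-labelled library. Its 614.4 and 573.3 normalised counts gave a log2 ratio of -0.10 (-0.27 to 0.07), and its count per *Trp53* count was 0.904 times that of WT (0.791 to 1.03). *Sesn2* (sestrin 2, a leucine sensor that restrains mTORC1; chromosome 4, 132492032 to 132510501) had 270 and 151 counts, or 231.7 and 176.0 normalised counts. It was lower in the Ezh2 KO-labelled library, with a log2 ratio of -0.40 (-0.69 to -0.10), the lowest ratio of the group.

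*Trp53inp1* (a nuclear stress protein that takes part in p53-dependent cell death and in autophagy; chromosome 4, 11156431 to 11174379) had 159 and 141 counts. At 136.4 and 164.3 normalised counts its log2 ratio was 0.27 (-0.07 to 0.60). *Phlda3*, which encodes a protein that blocks recruitment of AKT to membranes (chromosome 1, 135766119 to 135769136), had only 35 and 20 counts, and its log2 ratio of -0.35 had an interval from -1.24 to 0.47. *Zmat3* (an RNA-binding zinc finger protein; chromosome 3, 32334792 to 32366014) had 17 and 13 counts, a log2 ratio of 0.05 (-1.11 to 1.18). At this depth the interval of *Zmat3* holds 2-fold differences in both directions, and that of *Phlda3* a 2-fold lower level.

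The *Gadd45* genes encode small nuclear stress proteins that bind cell cycle and MAP kinase proteins, and *Gadd45b* is known more for induction by NF-kB and TGF-beta signals than by p53. *Gadd45a* (chromosome 6, 67035096 to 67037457) had 97 counts in WT, compared with 96 in the Ezh2 KO-labelled library, or 83.2 and 111.9 normalised counts. Its log2 ratio of 0.42 had an interval that reached down to 0.00 and up to 0.85. A noncoding gene on the opposite strand, *E230016M11Rik*, shares 337 exonic bases with it and had 30 and 21 counts, so reads from the shared stretch may not have been counted for either gene. *Gadd45b* (chromosome 10, 80930073 to 80932204) had 94 and 77 counts, or 80.7 and 89.7 normalised counts, with a log2 ratio of 0.15 (-0.30 to 0.60). The third relative, *Gadd45g*, was named after its value was seen and had 79.8 and 102.5 normalised counts (0.36, -0.08 to 0.80). Counts of *Gadd45a* per *Gadd45b* count were 1.21 times the WT value, with an interval from 0.783 to 1.86.

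**Figure D2:**
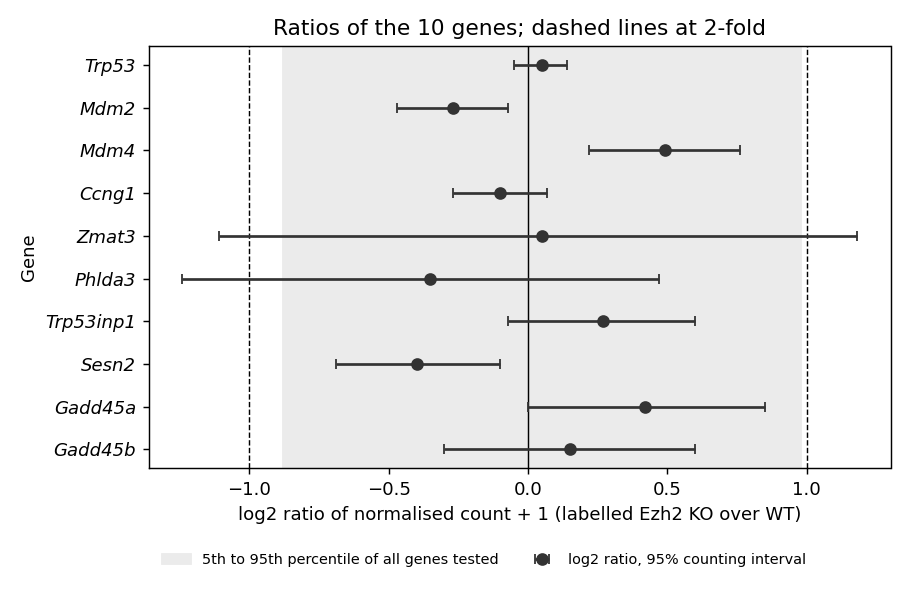
Log2 ratio of the normalised count plus 1 (Ezh2 KO-labelled library over WT) for each of the 10 genes, with bars for the exact 95% counting interval, dashed lines at 2-fold and a grey band from the 5th to the 95th percentile of all genes tested (-0.88 to 0.98). All 10 points lie inside the band, from -0.40 for *Sesn2* to 0.49 for *Mdm4*.

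Intervals excluded 0 for 4 of the 10 genes, *Mdm4* and *Gadd45a* above and *Mdm2* and *Sesn2* below. That of *Gadd45a* did so only by a margin that rounds to 0.00. Of all genes tested, 19.2% had an interval above 0 and 20.8% an interval below 0, so 2 of 10 in each direction is close to the share of all genes. Counting error alone would put 2.5% of genes on either side, and an interval that excludes 0 therefore does not stand for a difference between genotypes. In the plot of ratio against expression, the 10 genes lay within the cloud of genes of like abundance.

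**Figure D3:**
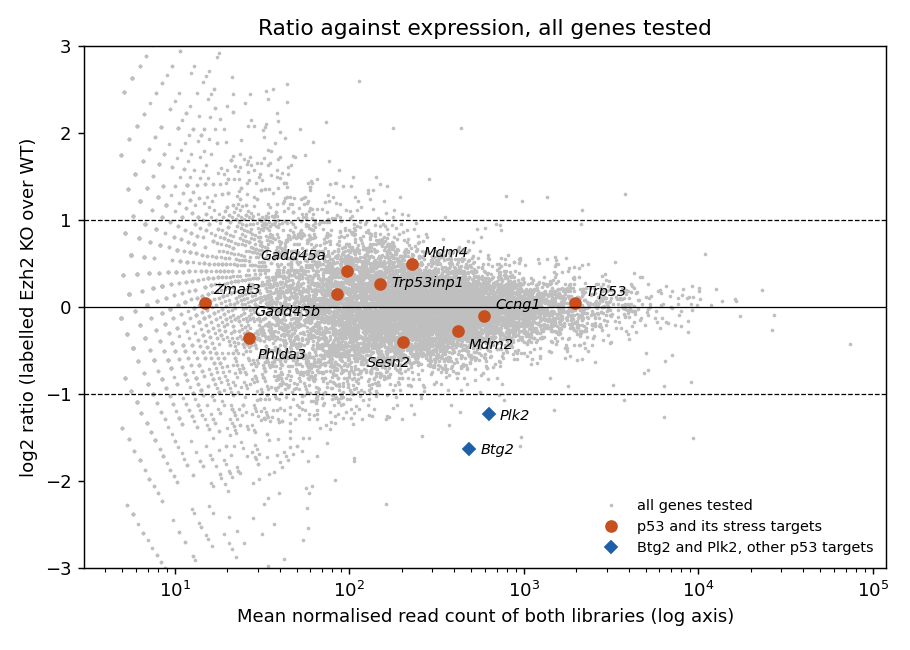
Log2 ratio (Ezh2 KO-labelled library over WT) against the mean normalised count of both libraries (log axis) for all 12588 genes tested (grey), with the 10 genes in orange and *Btg2* and *Plk2*, p53 targets outside the group, as blue diamonds. The axis ends at 3 in either direction, which leaves out 135 genes. The 10 genes lie between the dashed 2-fold lines and the diamonds below them.

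The order of levels per exon length was nearly the same in both libraries. In WT it ran from *Trp53* (96.5 RPKM) through *Ccng1* (35.4), *Mdm2* (18.3) and *Sesn2* (13.5) to *Gadd45b* (10.3), *Gadd45a* (9.54), *Trp53inp1* (4.26), *Phlda3* (3.9), *Mdm4* (2.61) and *Zmat3* (0.258). In the Ezh2 KO-labelled library, *Gadd45a* (13.1 RPKM) and *Gadd45b* (11.7) came before *Sesn2* (10.5), and *Mdm4* (3.75) before *Phlda3* (3.09). Those neighbours had overlapping counting intervals in that library, as had *Mdm2* (15.5) and *Gadd45a*. In WT, *Gadd45b* overlapped both its neighbours *Sesn2* and *Gadd45a*, and *Phlda3* overlapped *Trp53inp1* and *Mdm4*. Exon length was the union of all annotated isoforms, which lowers the level per length of genes with long alternative ends such as *Mdm4* and *Zmat3* (11435 bases).

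Other p53 targets were then examined as a list of 33 genes, of which 33 passed the filter. Here 3 genes were past 2-fold lower and 1 past 2-fold higher, beside the 3.9% and 4.91% of all genes. The median log2 ratio was -0.23 against 0.00 for all genes, and 24 of the 33 (72.7%) were below 0, compared with 50.4% of all genes. Intervals lay below 0 for 9 (27.3%) and above 0 for 4 (12.1%), beside 20.8% and 19.2% of all genes.

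The genes of cell cycle arrest and growth control included the largest differences of the list. *Btg2*, an antiproliferative gene, had 862 counts in WT, compared with 205 in the Ezh2 KO-labelled library, or 739.7 and 238.9 normalised counts, a log2 ratio of -1.63 (-1.86 to -1.41). *Plk2*, a kinase of centriole duplication and stress responses, had 883.0 and 375.2 normalised counts, a log2 ratio of -1.23 (-1.42 to -1.05). *Ppm1d*, which encodes the phosphatase WIP1 that switches the p53 response off again, had 249.7 and 135.2 (-0.88, -1.21 to -0.57). *Cdkn1a*, the p21 inhibitor of cyclin-dependent kinases and the best known p53 target, was named after its value was seen. Its 91 and 60 counts gave a log2 ratio of -0.16 (-0.65 to 0.33). Of the 10 genes of this class 8 (80.0%) were below 0, beside 50.4% of all genes, and the class had a median of -0.26.

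Genes of apoptosis had a median log2 ratio of -0.41, and 10 of 12 (83.3%) were below 0, beside 50.4% of all genes. *Bax*, whose protein permeabilises the mitochondrial outer membrane, had 272.9 normalised counts in WT, compared with 209.8 in the Ezh2 KO-labelled library, a log2 ratio of -0.38 (-0.65 to -0.11). The nuclease gene *Aen* had 299.5 and 223.7 (-0.42, -0.68 to -0.16), and *Ei24*, a gene of the endoplasmic reticulum and autophagy, 480.6 and 477.8 (-0.01, -0.20 to 0.18). *Tnfrsf10b*, a death receptor gene, was past 2-fold lower on 27 and 9 counts, a log2 ratio of -1.07 (-2.42 to -0.01).

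The 5 targets in DNA repair had a median of 0.21, with 3 above and 2 below 0, beside 49.6% and 50.4% of all genes. *Xpc*, which recognises helix-distorting lesions, had 743.2 and 918.3 normalised counts, a log2 ratio of 0.30 (0.16 to 0.45). *Ercc5*, the nuclease that cuts 3′ of such lesions, had 84.1 and 129.3 (0.62, 0.22 to 1.03), and their partner *Ddb2* had 116.7 and 107.2 (-0.12, -0.52 to 0.27).

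In the class of metabolism and signalling the median over 6 genes was -0.06. *Pml*, the organiser of nuclear bodies, had 1748.0 and 1673.4 normalised counts (-0.06, -0.16 to 0.04), *Sesn1* had 1221.1 and 1170.0 (-0.06, -0.18 to 0.06) and the adenylate kinase gene *Ak1* 349.3 and 321.6 (-0.12, -0.34 to 0.11). *Tigar*, a fructose bisphosphatase gene that slows glycolysis, was past 2-fold higher on 20 and 31 counts, with a log2 ratio of 1.03 (0.22 to 1.96).

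*Btg2* and *Plk2* are also known as immediate early genes, which respond within minutes to growth factors and to handling of cells. A separate list of 14 such genes, without these 2, lay wholly below 0 in the Ezh2 KO-labelled library, compared with 50.4% of all genes. The median log2 ratio of the 14 was -0.74, and 4 were past 2-fold lower, beside 3.9% of all genes. *Fos* had 13853.0 and 4892.0 normalised counts, *Zfp36* 11754.8 and 6497.8, *Egr1* 8942.7 and 3744.1, *Ier2* 7810.8 and 5071.4, *Nr4a1* 1416.8 and 502.2 and *Fosb* 82.4 and 38.5. The summed level of the list was 14200 CPM in WT and 7560 CPM in the other library. *Gadd45b*, itself a rapidly induced gene, had a log2 ratio of 0.15 with an interval that included 0 (-0.30 to 0.60). The part of this response in the values of *Btg2*, *Plk2* and *Gadd45b* was not tested.

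**Figure D4:**
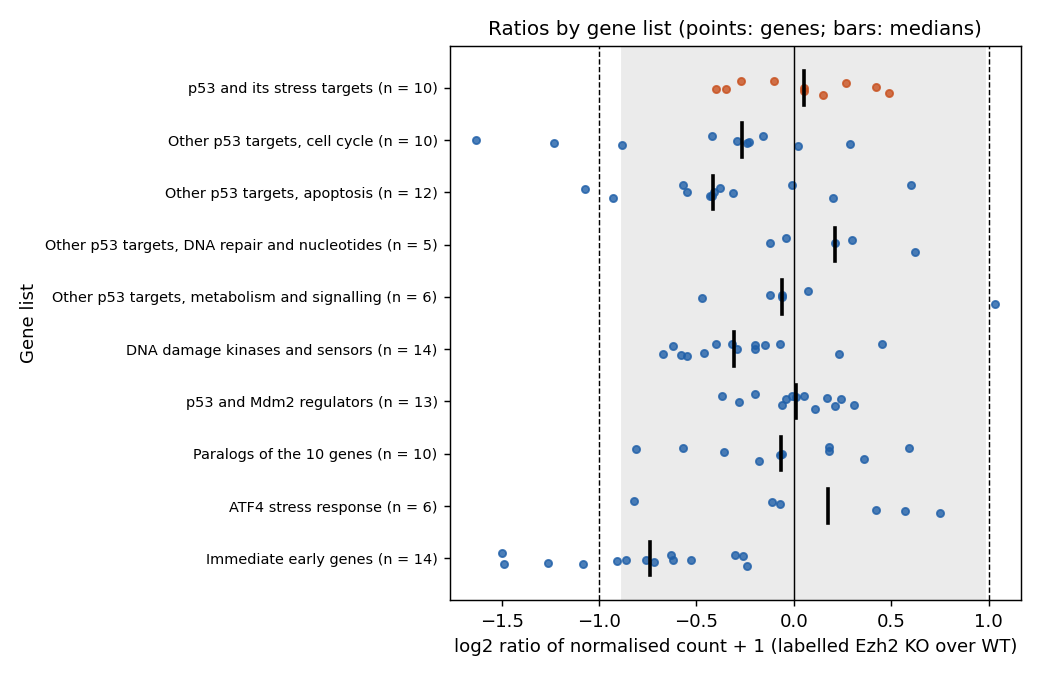
Log2 ratio of each gene that passed the filter (points; Ezh2 KO-labelled library over WT), by gene list, with black bars for medians, dashed lines at 2-fold and a grey band from the 5th to the 95th percentile of all genes tested. The 10 genes (orange) lie around 0 with a median of 0.05, the apoptosis targets have a median of -0.41 and the 14 immediate early genes one of -0.74. *Sesn1* appears in 2 lists.

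Among 14 kinases and sensors of DNA damage that act upstream of p53, 0 were past 2-fold, beside 4.91% higher and 3.9% lower of all genes. Of the 14, 12 (85.7%) were below 0, compared with 50.4% of all genes, with a median log2 ratio of -0.30. Intervals lay below 0 for 5 (35.7%) and above 0 for 1 (7.14%), beside 20.8% and 19.2% of all genes. Ratios ran from -0.67 for *Rad17* to 0.45 for *Rad50*. *H2afx*, the histone variant phosphorylated at breaks, had 574.1 and 546.5 normalised counts (-0.07, -0.24 to 0.10). *Trp53bp1*, a scaffold at breaks, had 437.7 and 330.9 (-0.40, -0.62 to -0.19). *Rad50*, of the complex that senses broken ends, went the other way with 316.7 and 433.5 (0.45, 0.24 to 0.66).

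Of 17 regulators of p53 and MDM2, 16 symbols were in the files and 13 passed the filter. Of these 13, 0 were past 2-fold, beside 4.91% higher and 3.9% lower of all genes. The median log2 ratio of the 13 was 0.01. *Npm1* had 2884.2 normalised counts in WT, compared with 2902.8 in the Ezh2 KO-labelled library, *Rpl5* 2818.1 and 2704.7, and *Rpl11* 2026.1 and 2338.8, the last with a log2 ratio of 0.21 (0.12 to 0.29). The proteins of all 3 bind MDM2 when ribosome assembly is disturbed. Genes of this kind have many pseudogene copies, and reads aligned to several places were not counted. *Cdkn2a*, the locus of the MDM2 inhibitor ARF and a known Polycomb target, had 0 counts in WT, compared with 1 in the Ezh2 KO-labelled library, both under the floor of 3 counts.

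Relatives of the 10 genes gave a median of -0.07 over the 10 that passed the filter, of 11. Of these relatives 0 were past 2-fold, beside 4.91% higher and 3.9% lower of all genes. *Sesn2* counts per *Sesn1* count were 0.793 times the WT value (0.635 to 0.987). *Ccng2* had 261.7 and 249.4 normalised counts, and counts of *Ccng1* per *Ccng2* count were 0.979 times the WT value (0.79 to 1.21). *Zmat2*, a splicing factor gene, had 363.0 and 412.5 (0.18, -0.02 to 0.39).

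*Sesn2* is also a target of ATF4, the transcription factor of amino acid and endoplasmic reticulum stress. The list of 9 genes for that response had 6 that passed the filter, 3 above and 3 below 0, with a median of 0.17. Of these 6, 0 were past 2-fold, beside 4.91% higher and 3.9% lower of all genes. *Atf4* had 788.6 and 749.3 normalised counts (-0.07, -0.22 to 0.07), *Trib3* 516.6 and 478.9 (-0.11, -0.29 to 0.07), and *Ppp1r15a*, which like the genes above is also rapidly induced, 1812.4 and 1026.6 (-0.82, -0.94 to -0.71). These most abundant genes were the 3 below 0. The 3 above 0, named after their values were seen, were *Vldlr* (0.75, 0.41 to 1.10), *Asns* (0.57, 0.35 to 0.80) and *Ddit3* (0.42, interval including 0). Intervals lay above 0 for 2 of the 6 genes (33.3%) and below 0 for 1 (16.7%), beside 19.2% and 20.8% of all genes.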

How the data were processed

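RNA was amplified as full-length cDNA with a SMARTer kit, sheared and sequenced as single reads. The deposited values are raw counts per gene symbol; per the study's methods and the submitters' processing notes, reads were aligned to mm10 with TopHat2 (2.0.13) and Bowtie2 (2.1.0), with StringTie named as the source of the counts. Each file ends with 5 tallies of reads given to no gene, in the form htseq-count writes, so the counter and its use of strand are not settled. These entries, 56.1% and 56.9% of all, were kept out of totals. Amplification and the loss of reads with several alignments can alter single genes.

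Counts were divided by DESeq2 (1.42.0) median-of-ratios size factors, 1.17 and 0.858. edgeR (4.0.16) gave TMM and upper-quartile factors. Neither tool's test was run, because 1 library per group leaves no spread to estimate. A gene was called at 2-fold with a mean of at least 1 CPM. Intervals are Clopper-Pearson (95%), Poisson for RPKM, and conditional odds ratios for gene pairs (scipy 1.17.1). The calculation was tested on simulated counts with Poisson error only, which checks its arithmetic and not spread between animals or PCR copies. Positions and exon lengths came from GENCODE M21 for 24045 of the symbols. The 10 genes and all lists were chosen with earlier results of these data known. Named genes were *Ezh2*, the 10 genes, and from each pathway list those past 2-fold and the 3 most abundant by mean normalised count. Cell type markers are given as sums. Other genes, among them *Cdkn2a*, *Trp63*, *Trp73*, *Xist*, *Ddx3y* and the single markers, were named with their values known.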

Additional observations from a re-analysis of the deposited data

How the results depend on the processing

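The direction held for 9 of the 10 genes under every alternative that gave them a value. The exception was *Zmat3*, whose log2 ratio of 0.05 became -0.29 when the WT library was thinned to the depth of the other. All 88 values of single genes under alternatives lay inside the reported counting interval. A change of filter cannot alter the ratio of a single gene, and the scalings were nearly equal. For those settings this outcome was therefore fixed in advance or nearly so. No alternative took any of the 10 genes past its fold threshold. The median of the 10 genes lay between 0.00 and 0.10, and that of the other p53 targets between -0.23 and -0.14. Numbers of genes past the threshold depended on the filter and the threshold. Among all genes, a mean of 10 CPM gave 96 higher and 115 lower, no filter gave 1404 and 1098, and the 1.5-fold threshold gave 1321 and 1261. Among the other p53 targets, 1 higher and 3 lower became 3 and 5 at 1.5-fold. The higher number became 0 with a mean of 10 CPM and 0 with a pseudocount of 5, since *Tigar* was lost. The lower number became 2 under each of these settings. Other scalings and the removal of a trend with exon length left the counts within 1.5 times those reported. DESeq2 and the edgeR quasi-likelihood test were not run. No paired analysis was possible because there is only 1 library per genotype. Among the 10 genes, depth limits *Zmat3* and *Phlda3* most.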
